A study of Mus musculus with 8 samples.

Results

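The genes described here are 10 markers of resident Kupffer cells, the macrophages that line the sinusoids of the liver: Clec4f, Timd4, Vsig4, Marco, Cd5l, Clec1b, Folr2, Cd163, Id3 and Spic. They were chosen by symbol, through GENCODE M21, from the 46517 Ensembl genes of the deposited table, and each symbol matched 1 gene. Whole liver RNA came from 4 MøFoxO1-KO mice and 4 WT littermates, all male C57BL/6 mice that started a NASH-inducing diet at 6 weeks of age, ate it for 25 weeks, and were 31 weeks old at tissue collection after a 16-hour fast. MøFoxO1-KO mice carry 2 floxed FoxO1 alleles and Lyz2-Cre, in which the lysozyme 2 promoter drives Cre in myeloid cells throughout the body. The WT littermates carry the same floxed alleles without Cre. The comparison asked how the resident macrophage program of the liver differed when FoxO1 was deleted in myeloid cells. Replicates are named by the animal numbers of the labels, 22 to 25 for WT and 26 to 29 for MøFoxO1-KO. No group on regular chow was analysed here, so no value separates the effect of the diet.

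Kupffer cells settle in the liver before birth and renew themselves there, and signals from sinusoidal endothelial and stellate cells keep up their identity. They clear bacteria, aged blood cells and dying cells from portal blood. In steatohepatitis, resident cells can be lost and replaced by cells that derive from monocytes, which take up some Kupffer cell markers early and others, such as Timd4, late. The 10 genes fall into receptors for microbes, complement and sugars (Marco, Vsig4, Clec4f), receptors and secreted proteins for dying cells and their debris (Timd4, Cd5l, Cd163), other surface receptors (Folr2, Clec1b) and transcriptional regulators (Id3, Spic).

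By mean normalized counts, which compare 1 gene between livers, each of the 10 genes was higher in MøFoxO1-KO than in WT livers, and the difference ranged from 1.15-fold for Id3 to 36.4-fold for Marco. On the TPM scale, a share of all transcripts, the mean of Id3 was lower in MøFoxO1-KO livers (54.4 against 60.1) and that of Cd163 was 1.74 in both groups, so no direction holds for these 2 genes. Marco and Timd4 stood apart from the other 8 members, whose means differed by at most 2.6-fold, the value of Folr2. Against these folds stood a wide spread: 0 of the 10 genes passed both thresholds, which were a Benjamini-Hochberg adjusted P below 0.05 over 13278 genes in edgeR's quasi-likelihood F test and a log2 fold change of more than 1.5 in size, and 0 passed the first one alone. Of all genes tested, 0.188% passed both thresholds (0.0527% as higher in MøFoxO1-KO livers) and 0.294% passed the first. At an unadjusted P under 0.05, 5 of the 10 members were higher (Marco, Timd4, Folr2, Cd5l and Vsig4) and 0 were lower, where 8.65% of all genes tested were higher and 8.06% lower. DESeq2's Wald test placed Marco and Timd4 past both thresholds, and it did so in the higher direction for 0.520% of the genes it tested. Limma-voom placed 0 there. The median log2 fold change of the 10 members was 0.87, against -0.01 over all genes tested, and all 10 were above 0, as were 48.3% of all genes. The log2 fold change exceeded 1 in 5 members and in 2.33% of all genes, and the MøFoxO1-KO mean was over 2 times the WT mean in the same 5 members and in 2.38% of all genes. Whole liver RNA cannot tell a change in the number of Kupffer cells from a change in the RNA that each cell holds.

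In Timd4, Vsig4, Marco, Folr2, Cd5l and Cd163, MøFoxO1-KO replicate 28 had the lowest value of its group, and in Clec4f, Clec1b, Id3 and Spic replicate 26 did. For 8 of the 10 members the value of replicate 28 lay within the range of the WT livers, as against 5 members in replicate 26 and 2 each in replicates 27 and 29. In 4 members (Timd4, Vsig4, Marco and Folr2) the other 3 MøFoxO1-KO livers lay above every WT liver, and replicate 28 did so in Timd4 alone. Over all genes tested, 1093 (8.23%) had replicates 26, 27 and 29 above every WT liver, and replicate 28 joined them in 60.8%. Replicate 26 joined the other 3 in 59.0% of 1126 such genes. Outside the members, replicate 28 stood with the MøFoxO1-KO livers for Trem2, among others, at 6.64 normalized counts against 11.9 in the lowest WT liver. These Trem2 values rest on few reads, 7 against 12, and replicate 28 was the highest of its group. The share of counts from mitochondrial genes was highest of the 8 livers in replicate 28 (6.332%) and lowest in replicates 27 (4.163%) and 29 (4.716%), against 5.142% in replicate 26 and 5.195 to 5.752% in the WT livers, and its part in the members' values was not tested. Without replicate 28, Marco and Timd4 passed both thresholds (edgeR, Benjamini-Hochberg adjusted P = 0.0109 and 0.00867), where 0.267% of all genes tested did so in the higher direction and 0.467% passed the first threshold alone. Replicate 28 was singled out by its values for these same genes, the lowest of its group, so these 2 calls are no independent support. With any other single liver left out, 0 members passed both thresholds.

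**Figure D1:**
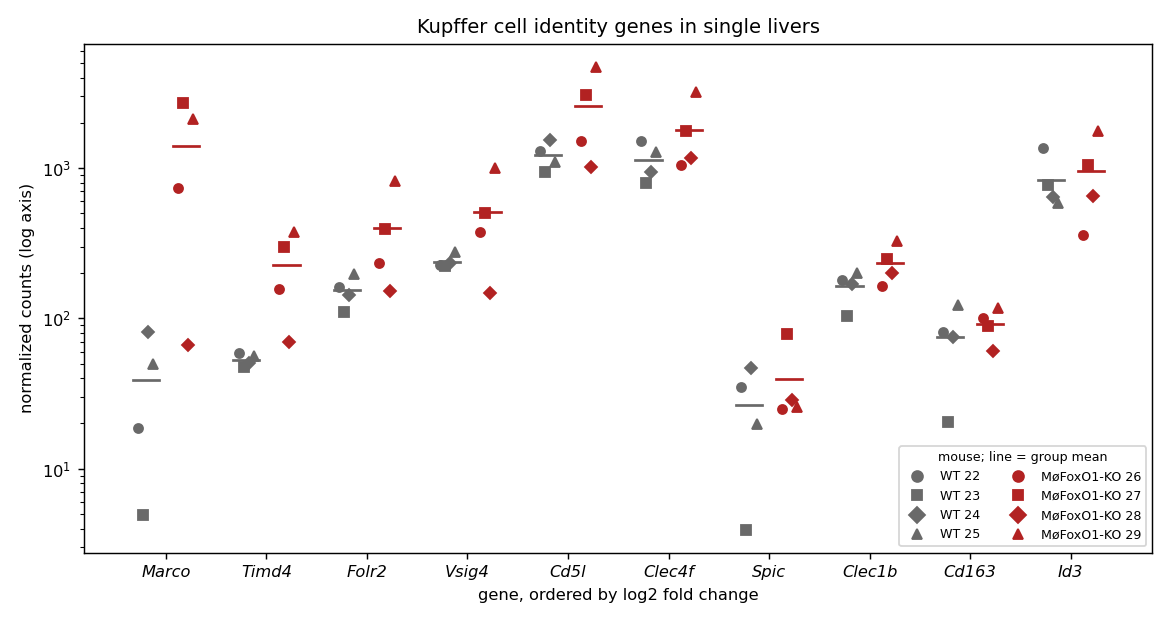
Normalized counts of the 10 Kupffer cell identity genes on a log axis, with 1 symbol per liver, WT in gray, MøFoxO1-KO in red, and a line at each group mean. Marco and Timd4, at the left, show the widest gap between the means, and MøFoxO1-KO replicate 28 (red diamond) lies near the WT livers in both, at 66.4 for Marco and 69.3 for Timd4.

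Total counts per liver ranged from 15253218 to 18025481. Normalized counts are counts divided by the library size after TMM scaling (edgeR), times the mean of the 8 scaled library sizes, and they compare 1 gene between livers. Levels of different genes are given as TPM, a share of all transcripts after division by the summed exon length. Means are given with the SD over the 4 livers of a group (n = 4 throughout). Foxo1, the targeted gene, had 404 ± 73.9 normalized counts in the WT group and 359 ± 73.4 in the MøFoxO1-KO group, with overlapping values. Since hepatocytes also hold Foxo1 transcripts, this value does not check the deletion in macrophages. Hepatocyte markers were abundant in every liver, with 682746 or more normalized counts of Alb, and 0 of the 7 were called. Of the 7, 5 were higher and 2 lower, around a median log2 difference of 0.19. The lower ones were Apob (0.859-fold in mean) and Hnf4a (0.801-fold). Apoa1, the main apolipoprotein of HDL, was 2.09-fold higher in mean in MøFoxO1-KO livers (edgeR, Benjamini-Hochberg adjusted P = 0.0765). The protease inhibitor gene Serpina1a was 1.86-fold higher (adjusted P = 0.102, edgeR). For these 2 of the 7 genes every MøFoxO1-KO liver lay above every WT liver, as it did for 5.00% of all genes tested. The Apoa1 difference was close in size to those of Cd5l and Vsig4, 2.12-fold each.

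The 250 bases before the RefSeq transcription start (GRCm38.p6) are shown for the pair of genes with the widest difference, Marco and Timd4, and for Clec4f, the lectin that marks mouse Kupffer cells most strictly, whose means differed by 1.58-fold. Capitals mark the letters GAGGAA, the core that PU.1 and Spic, both Ets factors, can bind, and TGCTGA, a half-site of MAF factors, on either strand.
Marco, chr1:120505025-120505274, minus strand: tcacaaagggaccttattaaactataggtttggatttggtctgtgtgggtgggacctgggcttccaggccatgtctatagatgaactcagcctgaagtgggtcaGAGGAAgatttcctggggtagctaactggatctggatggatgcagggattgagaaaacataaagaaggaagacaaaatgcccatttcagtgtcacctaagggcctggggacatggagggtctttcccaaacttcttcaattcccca
Timd4, chr11:46810549-46810798, plus strand: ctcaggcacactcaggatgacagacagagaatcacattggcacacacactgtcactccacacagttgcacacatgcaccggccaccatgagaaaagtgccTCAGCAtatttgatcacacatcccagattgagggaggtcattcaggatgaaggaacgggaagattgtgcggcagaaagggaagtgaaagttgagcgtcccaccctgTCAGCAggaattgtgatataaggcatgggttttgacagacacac
Clec4f, chr6:83656117-83656366, minus strand: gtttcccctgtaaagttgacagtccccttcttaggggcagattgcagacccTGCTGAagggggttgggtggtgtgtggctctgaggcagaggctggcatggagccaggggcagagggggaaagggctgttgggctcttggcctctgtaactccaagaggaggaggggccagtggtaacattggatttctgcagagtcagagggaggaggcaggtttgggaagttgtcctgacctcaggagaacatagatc

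In this window the Marco promoter held 1 GAGGAA core, starting at base -146 from the start, and no MAF half-site. The Timd4 promoter held no GAGGAA and 2 MAF half-sites, at -150 and -44, both on the opposite strand, and the Clec4f promoter held 1 half-site, at -199. Over the 10 members, 4 promoters (Vsig4, Marco, Cd5l and Id3) held GAGGAA, as did 23.4% of all 32536 promoters of the same length. The MAF half-site was found in 5 of the 10 (Clec4f, Timd4, Cd5l, Folr2 and Spic) and in 16.1% of all promoters. None of the 10 held GTAAACA, the core letters of FoxO factors, which 3.2% of all promoters held, and none held GTGGGAA, the letters of the Notch factor RBPJ, found in 5.4%. No match overlapped another. For Spic and Id3 the RefSeq start lies 1992 and 325 bases from the 5′ end of the deposited gene, so these windows need not be the promoters in use. The RefSeq start of Clec4f lies 71 bases inside the deposited gene, so the window shown overlaps that gene.

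Marco (ENSMUSG00000026390, chromosome 1 of GRCm38 from 120474538 to 120505024, minus strand) encodes a class A scavenger receptor that binds bacteria and particles. WT replicates 22, 23, 24 and 25 had 18.7, 4.92, 81.2 and 49.8 normalized Marco counts. MøFoxO1-KO replicates 26, 27, 28 and 29 had 737, 2712, 66.4 and 2119. All but 1 of the MøFoxO1-KO livers were above every WT liver, and replicate 28 lay between WT replicates 25 and 24. The mean was 38.7 ± 34.0 in WT and 1409 ± 1219 in MøFoxO1-KO livers. On the log2 scale the difference was 5.18 ± 1.06 (SE), with a 95% confidence interval from 2.83 to 7.52 (edgeR, Benjamini-Hochberg adjusted P = 0.087). Marco ranked number 5 of 13278 genes by increase and number 92 by P. Among the 4 WT livers Marco varied over a wide range, from 5 reads in replicate 23 to 88 in replicate 24, which limits the precision of the ratio.

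Vsig4 (ENSMUSG00000044206, chromosome X from 96247203 to 96293438, minus strand) encodes a complement receptor that captures opsonized microbes from blood. Vsig4 had 225, 223, 234 and 276 normalized counts in WT replicates 22 to 25, and 376, 503, 148 and 1005 in MøFoxO1-KO replicates 26 to 29. The WT livers lay close together, whereas the MøFoxO1-KO livers lay on both sides of them, with replicate 28 the lowest of the 8 livers and replicate 29 the highest. This gave a log2 fold change of 1.08 ± 0.44 (SE; edgeR, Benjamini-Hochberg adjusted P = 0.259), which was 0.51 without replicate 29 and 1.41 without replicate 28.

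Clec4f (ENSMUSG00000014542, chromosome 6 from 83644542 to 83656187, minus strand) encodes a C-type lectin that binds galactose-type sugars and, in the liver, is restricted to Kupffer cells in mice. WT replicates 22 to 25 had 1510, 799, 938 and 1284 normalized Clec4f counts, and MøFoxO1-KO replicates 26 to 29 had 1052, 1769, 1172 and 3187. The groups overlapped, and only replicates 27 and 29 exceeded every WT liver. The mean was 1133 ± 324 in WT and 1795 ± 980 in MøFoxO1-KO livers. The log2 fold change of 0.66 had a 95% confidence interval from -0.10 to 1.43 (edgeR, Benjamini-Hochberg adjusted P = 0.366), and it was 0.23 without replicate 29.

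Timd4 (ENSMUSG00000055546, chromosome 11 from 46810800 to 46844332, plus strand) encodes Tim-4, the phosphatidylserine receptor with which resident macrophages take up dying cells. Normalized Timd4 counts were 59.0, 47.2, 50.8 and 55.8 in WT replicates 22 to 25. They were 157, 299, 69.3 and 377 in MøFoxO1-KO replicates 26 to 29. Timd4 was the only one of the 10 members in which every MøFoxO1-KO liver lay above every WT liver, a pattern seen in 5.00% of all genes tested (the opposite pattern, found in 0 members, in 4.71%), and replicate 28 exceeded the highest WT liver by a narrow margin. The mean was 53.2 ± 5.24 in WT and 226 ± 138 in MøFoxO1-KO livers. In log2 units Timd4 differed by 2.08 ± 0.44 (SE), with a 95% confidence interval from 1.10 to 3.06 (edgeR, Benjamini-Hochberg adjusted P = 0.0968). Timd4 ranked number 50 of the 13278 genes by increase and number 103 by P.

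Cd5l (ENSMUSG00000015854, chromosome 3 from 87357881 to 87371073, plus strand) encodes a secreted scavenger receptor cysteine-rich protein that macrophages release into plasma. It had 1298, 940, 1527 and 1098 normalized counts in WT replicates 22 to 25, and 1513, 3075, 1017 and 4695 in MøFoxO1-KO replicates 26 to 29. Replicates 27 and 29 were above every WT liver, and replicates 26 and 28 were within the WT range. The difference was 1.08 ± 0.41 (SE) in log2 units (edgeR, Benjamini-Hochberg adjusted P = 0.234), and 0.62 without replicate 29.

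Cd163 (ENSMUSG00000008845, chromosome 6 from 124304656 to 124330527, plus strand) encodes the scavenger receptor for hemoglobin bound to haptoglobin. Its normalized counts were 81.5, 20.6, 74.8 and 122 in WT replicates 22 to 25, and 101, 89.6, 60.7 and 118 in MøFoxO1-KO replicates 26 to 29. All MøFoxO1-KO livers lay within the WT range. The log2 fold change of 0.30 had a 95% confidence interval from -0.66 to 1.26 (edgeR, Benjamini-Hochberg adjusted P = 0.77). Without WT replicate 23, the lowest liver, it was -0.01.

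Folr2 (ENSMUSG00000032725, chromosome 7 from 101839990 to 101845331, minus strand) encodes folate receptor beta of tissue macrophages. WT replicates 22 to 25 had 162, 110, 144 and 198 normalized Folr2 counts, and MøFoxO1-KO replicates 26 to 29 had 235, 392, 152 and 817. All but replicate 28 were above every WT liver. Its log2 fold change of 1.37 ± 0.45 (SE) had an adjusted P of 0.191 (edgeR, Benjamini-Hochberg), and was 0.75 without replicate 29. Of the members not past both thresholds in any fit, Folr2 alone passed the first threshold in 1 of them, DESeq2's Wald test (Benjamini-Hochberg adjusted P = 0.0361).

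Clec1b (ENSMUSG00000030159, chromosome 6 from 129397297 to 129409335, plus strand) encodes CLEC-2, the podoplanin receptor, which platelets carry as well as Kupffer cells. Normalized Clec1b counts were 180, 104, 170 and 201 in WT replicates 22 to 25, and 165, 250, 199 and 328 in MøFoxO1-KO replicates 26 to 29. The groups overlapped, and the log2 fold change of 0.52 had a 95% confidence interval from -0.04 to 1.08 (edgeR, Benjamini-Hochberg adjusted P = 0.335). Clec1b shares 184 exon bases with Clec9a, a dendritic cell lectin on the same strand with 15 to 67 counts per liver, so some reads may have been left uncounted or assigned to the neighbor. Of 10 platelet and megakaryocyte markers, 3 passed the filter on low counts and 0 were called. Summed over the list, WT livers had 57.0 to 174 normalized counts and MøFoxO1-KO livers 115 to 233. For Pf4, a platelet chemokine, normalized counts were 15.3 ± 6.39 in the WT and 14.5 ± 7.42 in the MøFoxO1-KO group. Itga2b, the platelet integrin, had 83.8 ± 37.9 and 111 ± 21.0. The part of platelets in the Clec1b values was not tested.

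Id3 (ENSMUSG00000007872, chromosome 4 from 136143497 to 136145755, plus strand) encodes an inhibitor of helix-loop-helix factors that Kupffer cells need to develop, and other liver cells express it as well. WT replicates 22 to 25 had 1353, 769, 644 and 587 normalized Id3 counts, and MøFoxO1-KO replicates 26 to 29 had 361, 1055, 656 and 1777. The MøFoxO1-KO livers held both the lowest and the highest value of the 8. A log2 fold change of 0.20 resulted, with a 95% confidence interval from -0.77 to 1.17 (edgeR, Benjamini-Hochberg adjusted P = 0.857), and it was -0.28 without replicate 29.

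Spic (ENSMUSG00000004359, chromosome 10 from 88674772 to 88685015, minus strand) encodes an Ets factor of macrophages that recycle heme iron. It was the member with the fewest counts per length, with 34.7, 3.93, 47.1 and 19.9 normalized counts in WT replicates 22 to 25 and 24.9, 78.8, 28.5 and 25.7 in MøFoxO1-KO replicates 26 to 29. Replicate 27 alone exceeded the WT range. The log2 fold change of 0.56 (95% confidence interval -0.83 to 1.95; edgeR, Benjamini-Hochberg adjusted P = 0.694) became 0.00 without replicate 27.

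**Figure D2:**
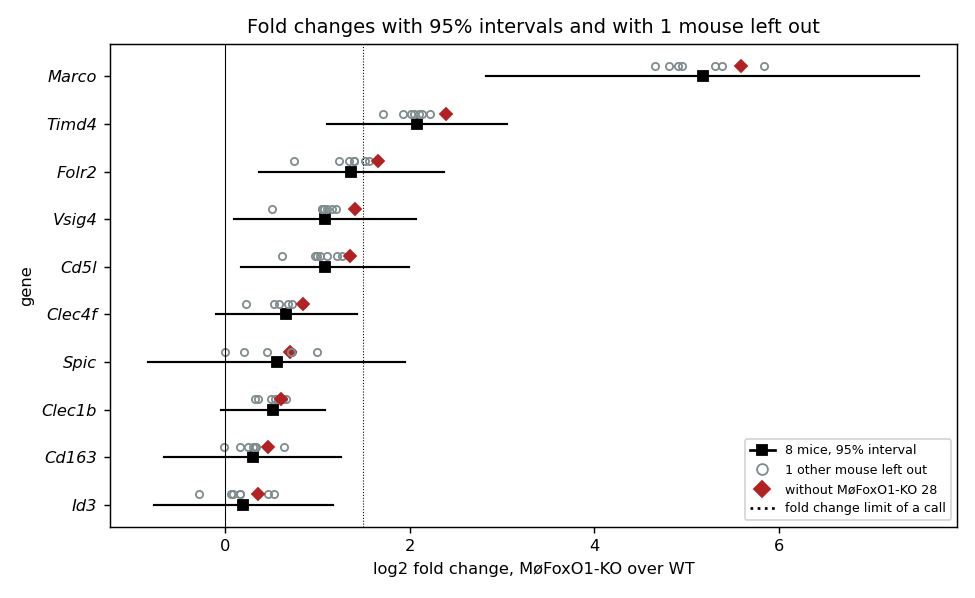
Log2 fold changes of the 10 genes, MøFoxO1-KO over WT, with 95% confidence intervals from edgeR (black), and the fold changes with 1 liver left out (circles, and a red diamond without MøFoxO1-KO replicate 28). The interval of Marco, from 2.83 to 7.52, lies wholly above the fold change limit of 1.5 (dotted line), and the interval of Timd4 crosses it. The intervals are for single genes and are not adjusted for the number of genes tested, and neither gene was called.

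The members also differed in how far they departed from Clec4f within the same liver. Relative to Clec4f TPM, Marco TPM was 0.0159, 0.00789, 0.111 and 0.0498 in WT replicates 22 to 25, and 0.90, 1.97, 0.0728 and 0.854 in MøFoxO1-KO replicates 26 to 29. In 3 MøFoxO1-KO livers Marco thus reached a level per length close to or above that of Clec4f, while in replicate 28 it stayed within the WT range. The same ratio for Timd4 was between 0.0444 and 0.0671 in WT and was 0.17, 0.192, 0.0672 and 0.135 in MøFoxO1-KO replicates 26 to 29. For Folr2 it was between 0.246 and 0.353 in WT and was 0.511, 0.507, 0.297 and 0.587. Vsig4 was alike, with 0.248 to 0.465 in WT and 0.595, 0.473, 0.21 and 0.525 in MøFoxO1-KO livers, so that replicate 28 again stood apart. For Timd4, replicate 28 lay barely above the highest WT ratio, 0.0671. For Cd5l, Clec1b, Cd163, Id3 and Spic, at least 1 more MøFoxO1-KO liver than replicate 28 lay within the WT range. These ratios were not tested.

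**Figure D3:**
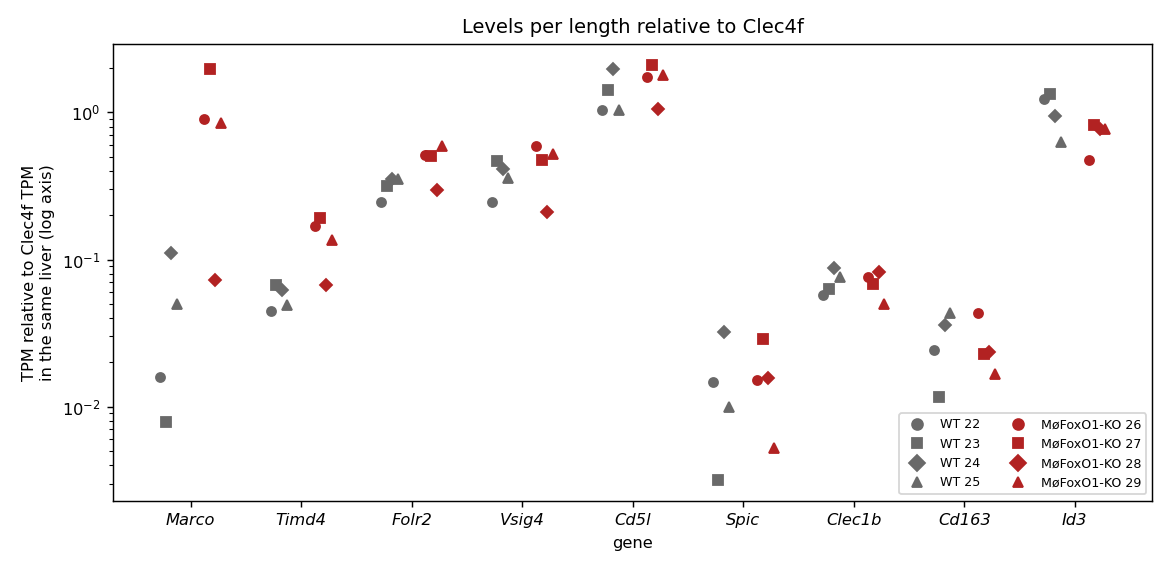
TPM of each of the other 9 genes divided by the Clec4f TPM of the same liver, on a log axis, with WT in gray and MøFoxO1-KO in red. Marco spans from 0.00789 to 0.111 in WT and reaches 1.97 in MøFoxO1-KO replicate 27, while the ratio of replicate 28 (red diamond), 0.0728, lies among the WT livers.

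Ordered by level in WT livers, Cd5l came first with a TPM of 77.3 ± 19.4, followed by Id3 with 60.1 ± 24.1 and Clec4f with 58.5 ± 14.3, and these 3 overlapped. Vsig4 (20.7 ± 1.53) and Folr2 (18.2 ± 3.48) overlapped each other and lay below those 3. Clec1b (4.11 ± 0.943), Timd4 (3.14 ± 0.223), Marco (2.62 ± 2.43), Cd163 (1.74 ± 0.906) and Spic (0.895 ± 0.67) came last, each overlapping the next. In MøFoxO1-KO livers Cd5l remained first with a TPM of 128 ± 76.5, and Marco, number 8 in WT, came next after Clec4f, with 72.5 ± 60.4 against 74.0 ± 36.7. Id3 followed with 54.4 ± 32.2. There, each gene overlapped the next in the order except Clec1b (4.74 ± 1.17), which lay above Cd163 (1.74 ± 0.408). Marco accounted for 1.04 ± 0.941% of the summed TPM of the 10 genes in WT and for 15.1 ± 10.4% in MøFoxO1-KO livers. Single MøFoxO1-KO livers had 16.3, 27.4, 2.02 and 14.9% in replicates 26 to 29.

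The summed TPM of the 10 genes was 301, 201, 264 and 224 in WT replicates 22 to 25, and 258, 496, 191 and 729 in MøFoxO1-KO replicates 26 to 29. Replicates 27 and 29 were thus above every WT liver, replicate 26 was within the WT range and replicate 28 was below it. In summed normalized counts replicate 28, at 3569, was within the WT range of 3023 to 4922. Without Marco the sums were 299, 201, 258 and 221 in WT, and 216, 360, 187 and 620 in MøFoxO1-KO livers. Replicate 29 was the highest of the 8 livers in 7 members. WT replicate 23 was the lowest in 8 members, and it also had the lowest summed counts of the sinusoidal endothelial, stellate, platelet and B cell lists. The part of its cell content in the members' fold changes was not tested. The median log2 fold change of the 10 members, 0.87, was 0.57 without MøFoxO1-KO replicate 29 and 0.75 without WT replicate 23.

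Other genes that Kupffer cells express were examined with a list of 20 genes that excludes the 10 members. Of these, 19 passed the filter on low counts, and 18 had a higher and 1 a lower mean in MøFoxO1-KO livers. The median log2 fold change was 0.51, and 0 were called. At an unadjusted P under 0.05, 4 were higher, namely Cd207, C6, Fcna and Sucnr1. Cd207, the gene of the lectin langerin, had the widest difference of the list, with 25.3, 58.0, 97.8 and 43.8 normalized counts in WT and 217, 134, 35.1 and 524 in MøFoxO1-KO livers (log2 difference 2.01; edgeR, Benjamini-Hochberg adjusted P = 0.204), and replicate 28 again lay within the WT range. The mean of Fcna, the gene of ficolin A, was 1.9-fold and that of the succinate receptor Sucnr1 1.56-fold higher. C6, a terminal complement component that hepatocytes also make, had 675, 794, 1647 and 823 normalized counts in WT and 3852, 4218, 1547 and 2417 in MøFoxO1-KO livers, a log2 difference of 1.61 (edgeR, Benjamini-Hochberg adjusted P = 0.102). The iron exporter Slc40a1 had 2169 ± 694 normalized counts in WT livers and 1742 ± 218 in MøFoxO1-KO livers. The heme-degrading enzyme Hmox1 had 332 ± 107 and 354 ± 139, and the adhesion molecule Vcam1 had 208 ± 71.2 and 213 ± 99.2. The glutamate transporter Slc1a3 did not pass the filter, with 0 to 5.90 normalized counts in WT and 3.80 to 22.4 in MøFoxO1-KO livers. Slc40a1, Hmox1 and Vcam1 thus differed by less than the spread between livers, whereas for Cd207 and C6 replicate 28 alone overlapped the WT livers.

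Of 11 transcription factors of Kupffer cells, all tested, 6 were higher and 5 lower, their median log2 difference was 0.18, and 0 were called. Nr1h3, which encodes the oxysterol receptor LXR-alpha that Kupffer cell identity requires, had 1575, 1527, 1426 and 1473 normalized counts in WT and 1699, 1883, 1758 and 2091 in MøFoxO1-KO livers. The groups did not overlap, and the log2 difference was 0.31 ± 0.11 (SE; edgeR, Benjamini-Hochberg adjusted P = 0.212). Every MøFoxO1-KO liver lay above every WT liver in 1 of the 11 factors and in 5.00% of all genes tested. Hepatocytes express Nr1h3 too. Spi1, the gene of PU.1, had 146 ± 52.3 in WT and 252 ± 173 in MøFoxO1-KO livers, and Zeb2 had 190 ± 43.0 and 260 ± 66.6. Id1, a relative of Id3, had 181 ± 180 and 178 ± 90.6. In each of these 3 the groups overlapped.

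Of 15 genes of the niche signals and their receptors, 9 were higher and 6 lower, around a median log2 difference of 0.08, and 0 were called. Csf1, a growth factor of macrophages, had 201 ± 54.8 normalized counts in the WT group and 224 ± 46.9 in the MøFoxO1-KO group. Its alternative ligand Il34 had 53.6 ± 18.6 and 56.6 ± 26.5. Gdf2, the gene of BMP9, had 260 ± 45.2 and 282 ± 59.3, and the Notch ligand Dll4 had 59.4 ± 36.1 and 62.3 ± 31.3. These 4 ligands differed by less than the spread between livers. Tgfb1, the gene of TGF-beta, had 274, 96.4, 316 and 231 in WT and 297, 392, 333 and 352 in MøFoxO1-KO livers, with 3 of the latter above every WT liver (edgeR, Benjamini-Hochberg adjusted P = 0.356). Its receptor gene Tgfbr1 was the sole gene of the list with an unadjusted P under 0.05, with 421 ± 63.4 in the WT and 339 ± 27.7 in the MøFoxO1-KO group (edgeR, Benjamini-Hochberg adjusted P = 0.271). Csf1r, the receptor of Csf1 and Il34 on macrophages, had 511 ± 128 and 823 ± 437, a log2 difference of 0.69 (edgeR, Benjamini-Hochberg adjusted P = 0.349).

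Markers shared by macrophages of any origin were mostly higher as well. Of 15 such markers, 14 were higher and 1 was lower, their median log2 difference was 0.69, and 0 were called, with 4 higher at an unadjusted P under 0.05 (edgeR). Their summed normalized counts were between 3384 and 7060 in WT livers, and were 5196, 8735, 4046 and 15387 in MøFoxO1-KO replicates 26 to 29. Replicates 27 and 29 were thus the highest for these markers, as they were for the summed Kupffer cell identity genes. Adgre1, the gene of F4/80, had 80.6, 77.7, 143 and 70.7 normalized counts in WT and 140, 252, 69.3 and 303 in MøFoxO1-KO livers, a log2 difference of 1.03 (edgeR, Benjamini-Hochberg adjusted P = 0.256). The complement gene C1qa had 811, 500, 1019 and 786 in WT and 957, 1987, 817 and 3290 in MøFoxO1-KO livers, a log2 difference of 1.18 (edgeR, Benjamini-Hochberg adjusted P = 0.212). The endosomal marker Cd68 had 154 ± 58.8 and 210 ± 114. Lyz2, the locus whose promoter drives Cre here, was the marker that was lower, with 605, 378, 1170 and 702 in WT and 413, 99.1, 140 and 1022 in MøFoxO1-KO livers (edgeR: log2 difference -0.77, Benjamini-Hochberg adjusted P = 0.586). Only the MøFoxO1-KO mice carry Lyz2-Cre. Neither the part of the Cre allele in the Lyz2 values nor that of macrophage content as a whole in the members' differences was tested.

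Markers of lipid-associated macrophages were mostly lower and those of monocytes went in both directions, and the difference of either list from the members was not tested. Of 10 lipid-associated markers, 3 were higher and 7 lower, around a median log2 difference of -0.61, and 1 was called lower, Gpnmb, a lysosomal membrane glycoprotein (edgeR: log2 difference -4.13, Benjamini-Hochberg adjusted P = 0.0382). At an unadjusted P under 0.05 (edgeR), 5 were lower and 1, Fabp5, was higher. Of all 13278 genes tested, 18 were called lower, and 8.06% were lower and 8.65% higher at an unadjusted P under 0.05. The 5 were Gpnmb, Trem2, Mmp12 (log2 difference -3.43), Atp6v0d2 (-1.49) and Cd63 (-0.99). Gpnmb was no longer called when any 1 liver other than MøFoxO1-KO replicate 28 was left out, with adjusted P up to 0.156 (edgeR, Benjamini-Hochberg), or with limma-voom. Fabp5, a fatty acid binding protein, was the lipid-associated marker with the widest increase in mean, with 54.3, 47.2, 86.8 and 66.7 normalized counts in WT and 173, 539, 83.5 and 169 in MøFoxO1-KO livers (log2 difference 1.91; edgeR, Benjamini-Hochberg adjusted P = 0.131). The lipid receptor Trem2 had 53.4, 20.6, 88.6 and 11.9 normalized counts in WT and 0, 2.39, 6.64 and 2.24 in MøFoxO1-KO livers, so that all 4 MøFoxO1-KO livers, replicate 28 included, lay below every WT liver. The log2 difference of Trem2 was -3.88 (edgeR, Benjamini-Hochberg adjusted P = 0.0983). Of all genes tested, 4.71% had every MøFoxO1-KO liver below every WT liver. Spp1, osteopontin, had 1280 ± 202 in the WT and 1090 ± 203 in the MøFoxO1-KO group, and Itgax, the gene of CD11c, had 68.9 ± 54.8 and 69.2 ± 75.6. Itgax was counted among the 7 lower markers by a fitted fold of 0.998, so no direction holds for it. Of 8 monocyte markers, 6 were tested, 4 higher and 2 lower, with a median log2 difference of 0.39 and 0 called. Their summed counts were 5492 to 6651 in WT livers and 7710 to 10212 in MøFoxO1-KO livers, without overlap. Most of that sum was F10, the coagulation factor X gene that hepatocytes also express, with 5722 ± 516 in the WT and 8704 ± 1024 in the MøFoxO1-KO group (edgeR, Benjamini-Hochberg adjusted P = 0.0993). Ccr2, the chemokine receptor of recruited monocytes, had 66.2 ± 36.8 in the WT and 55.9 ± 36.9 in the MøFoxO1-KO group, and Ly6c2 had 18.9 ± 9.26 and 26.3 ± 23.6.

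Markers of the cells around Kupffer cells were as follows. Of 10 sinusoidal endothelial markers, 10 were higher, as were 48.3% of all genes tested. Their median log2 difference was 0.25, and 0 were called or had an unadjusted P under 0.05. Stab2, a scavenger receptor of these cells, had 1111 ± 144 in WT and 1299 ± 289 in MøFoxO1-KO livers, the lectin Clec4g had 532 ± 283 and 749 ± 257, and Lyve1 had 101 ± 47.8 and 129 ± 20.2. Summed counts of the 10 markers were 6702, 2248, 5292 and 6432 in WT and 5673, 6671, 7846 and 4689 in MøFoxO1-KO livers. WT replicate 23 was the lowest of the 8, and its part in the direction of these markers was not tested. Replicate 28 was the highest of the 8 and replicate 29 the lowest of its group, the reverse of their order for the Kupffer cell identity genes. Stellate cell markers summed to 4583 to 8463 counts in WT livers and 5997 to 9397 in MøFoxO1-KO livers (median log2 difference 0.11). B cell markers summed to 59.0 to 386 and 219 to 660, and those of T and NK cells to 47.8 to 121 and 91.1 to 191. Replicate 29 was the highest of the 8 livers for each of these 3 lists, as it was for platelet markers. No list had a marker at 0 in all 8 livers.

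**Figure D4:**
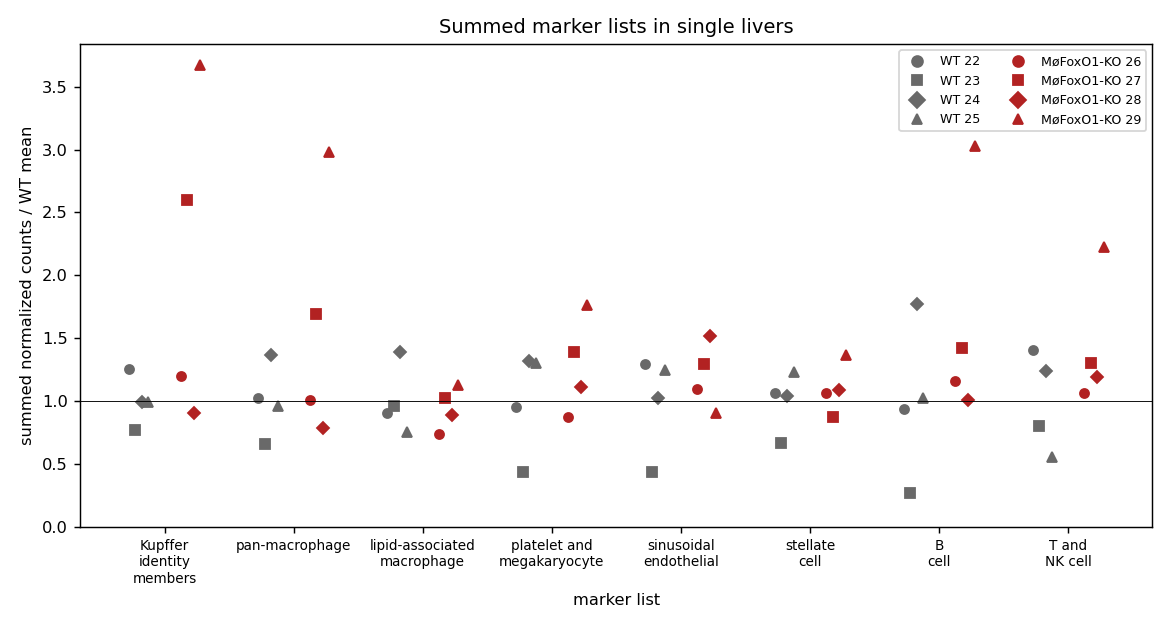
Summed normalized counts of 8 marker lists in each liver, divided by the WT mean of the list, with WT in gray and MøFoxO1-KO in red. MøFoxO1-KO replicates 27 and 29 stand highest for the Kupffer cell identity genes (10222 and 14449 summed counts) and for pan-macrophage markers, replicate 29 also for platelet, stellate, B cell and T and NK cell markers, and WT replicate 23 lies lowest for the Kupffer cell, pan-macrophage, platelet, endothelial, stellate and B cell lists.

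Genes outside the 10 members were also ordered by likeness to them, as Pearson's r over the 8 livers between log2 CPM and the mean z-score of the 10 members. The highest were Il17ra (0.983), Erp29 (0.983), Wfdc17 (0.978), Eif3i (0.977) and C1qa (0.977). Of these, C1qa is a macrophage gene and Wfdc17 encodes a secreted protein of activated macrophages, with 106 and 428 normalized counts on average in WT and MøFoxO1-KO livers. The others are widely expressed. Values of r over 0.9 were found for 214 of 13268 genes. All genes of a liver share its library and its cell content, so the order is a description.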

How the data were processed

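The authors deposited a table of raw read counts per Ensembl gene, without normalization, for 8 livers; per the labels it came from polyadenylated RNA, STAR, featureCounts and mm10. Versions, strand setting and the handling of multimapping reads are not given in the sources used here. The table also holds each gene's summed exon length, which was used for TPM. No per-sample column was left out. The span of Folr2 differs from that in GENCODE M21, and the deposited one was used. Replicates are separate mice.

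Genes were filtered with filterByExpr (minimum count 10, minimum total 15), leaving 13278, scaled by TMM and compared in edgeR 4.0.16 (R 4.3.3), by its quasi-likelihood F test, with P values adjusted by the Benjamini-Hochberg method. Called genes lay past the limits of the study's methods, adjusted P below 0.05 and a log2 fold change of more than 1.5 in size. Confidence intervals use the standard error and moderated degrees of freedom of that fit. DESeq2 1.42.0 and limma-voom (limma 3.58.1) were alternatives, with other scalings, filters and each mouse left out. Scripts were tested on simulated data. Members and lists were chosen with earlier results of these data known. Named genes were all 10 members, a set of list genes chosen for their role, called list genes and the 5 genes most like the members. The values of 1 gene of the transcription factor list are not reported here. The note on which of the members reached an adjusted P under 0.05 with DESeq2 was added after values were seen. So were the genes Cd207, Fcna, Sucnr1, Tgfb1, Tgfbr1, Fabp5, Mmp12, Atp6v0d2, Cd63, F10, Apoa1 and Serpina1a.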

Additional observations from a re-analysis of the deposited data

Results flagged for a closer look

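In 80 groups of 4 livers (40 genes, 20 groups of them Kupffer cell identity genes), 10 held 1 liver far from the other 3 by Dixon's test of the gap to the nearest liver. Chance gives about 5% of groups. Among the 10 members the sole such value was Spic in MøFoxO1-KO replicate 27, at 78.8 normalized counts against 24.9 to 28.5 in the other 3 livers.

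MøFoxO1-KO replicate 29 stood above its group for Itgax (182 against 27.5 to 37.0), Ly6c2 (61.6 against 12.5 to 17.9) and Slc1a3 (22.4 against 3.80 to 5.97). Replicate 28 stood above it for Dll4 (109 against 43.7 to 49.8). WT replicate 24 stood above the other WT livers for Adgre1 (143 against 70.7 to 80.6), Itgax (150 against 31.9 to 48.2), Vcam1 (314 against 159 to 181) and C6 (1647 against 675 to 823). WT replicate 22 did so for Id1 (451 against 87.5 to 94.6).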

How the results depend on the processing

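The number of Kupffer cell identity genes called, 0, became 2 (Marco and Timd4) with DESeq2's Wald test, without a filter on low counts, and without MøFoxO1-KO replicate 28, and ranged from 0 to 2 when single mice were left out. Other alternatives called 0. Genes called overall were 25, against 144 with DESeq2, 120 without a filter, 13 with limma-voom, 39 without a limit on the fold change, and 3 to 82 with a mouse left out. Adjusted P (Benjamini-Hochberg) of Marco ranged from 4.6e-04 (DESeq2) to 0.286 (limma-voom), and that of Timd4 from 2.15e-04 (DESeq2) to 0.30 (edgeR without replicate 27). The median log2 fold change of the members lay between 0.57 (without MøFoxO1-KO replicate 29) and 1.10 (without replicate 28) with a mouse left out. Of 148 alternative values for single members, 140 kept the call and did not reverse (Spic without MøFoxO1-KO replicate 27, at 0.00, had no direction), 6 became calls and 2 reversed: Cd163 without WT replicate 23 (-0.01; range with a mouse left out -0.01 to 0.64) and Id3 without MøFoxO1-KO replicate 29 (-0.28; range -0.28 to 0.53). The cause was not tested. The requirement of 10 counts in every mouse left no value for Marco and Spic. FPKM from TMM-scaled libraries in place of TPM kept 10 genes in place in WT and 8 in MøFoxO1-KO livers, where Marco and Clec4f changed places. No paired analysis was possible because the labels name no pairs of mice between the groups. Counts under 10 in single livers limit the precision for Marco and Spic.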
